A study of Mus musculus with 24 samples.

Results

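The genes described here are those encoded by the mouse mitochondrial genome. They were taken by one rule, a GENCODE M21 symbol that starts with mt-, which gives 37 of the 55471 genes in the deposited files: 13 mRNA genes, 2 rRNA genes and 22 tRNA genes. The study compared F-PRT, taken to be FLASH proton radiotherapy with protons at an ultra-high dose rate, with S-PRT, taken to be the standard form at a conventional dose rate, and with no irradiation. RNA was sequenced from skin and from bone of female mice aged 10 weeks. The 24 libraries form 6 groups of 4 biological replicates, namely skin F-PRT, skin S-PRT, skin Untreated, bone F-PRT, bone S-PRT and bone Untreated. The labels used here give no strain, genotype, dose, time after irradiation or library strand, and whole tissue was sequenced, so every value mixes all the cell types of the piece taken.

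Mitochondrial DNA is a small circular genome present in many copies per cell. It encodes core membrane subunits of the respiratory chain (the Nd genes for complex I, Cytb for complex III, the Co genes for complex IV and the Atp genes for ATP synthase), together with the rRNAs and tRNAs that translate them. Both of its strands are transcribed as long precursors by a dedicated polymerase, and the tRNAs between the other genes are cut out to release mRNAs, most of which carry short poly(A) tails. All other subunits, and every protein that copies, transcribes or translates this genome, come from nuclear genes.

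Pieces of mitochondrial DNA have also been inserted into nuclear chromosomes, and such copies compete with the mitochondrial genes for reads. An alignment of GENCODE M21 transcripts (build GRCm38) found 11 annotated pseudogenes that match a mitochondrial mRNA at 95% identity or more over at least 100 bases. Of these, 7 lie side by side on the minus strand at chr1:24611535-24616197. Gm28661 matches mt-Co2 over 681 bases, Gm10925 matches mt-Atp6 over 678 bases, Gm28437 matches mt-Co3 over 783 bases, Gm10222 matches mt-Nd4l over 294 bases and Gm28439 matches mt-Nd4 over 876 bases, each with 100% identity. Along these matches no read can be told from its mitochondrial counterpart. In this block Gm28438 differs from mt-Nd3 at 1 of 345 aligned bases, and Gm29216 from mt-Co1 at 1 of 483. On chromosome 2, Gm13340 matches mt-Co1 at 97.6% identity and Gm13341 matches mt-Co2 at 95.9%.

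The stretches around these differences are shown because within the aligned stretches they are the only places where a read from mt-Nd3, or from the end of mt-Co1, can be told from the chromosome 1 copy. Gm28438 is 345 bases long and mt-Nd3 348, and of the 492 bases of Gm29216 483 align, so reads that cross these ends can differ too. Sequences are GENCODE M21 transcripts read 5′ to 3′, the capitals mark the differing base, and positions count from 1 at the 5′ end of the mitochondrial transcript. For mt-Nd3 (chrM:9459-9806, plus strand) the difference is T3C.
mt-Nd3: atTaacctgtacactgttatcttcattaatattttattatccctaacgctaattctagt
Gm28438: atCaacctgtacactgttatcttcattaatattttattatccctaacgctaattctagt
For mt-Co1 (chrM:5328-6872, plus strand) the difference from Gm29216 is A1066T, and in the same window Gm13340 carries T1072C.
mt-Co1: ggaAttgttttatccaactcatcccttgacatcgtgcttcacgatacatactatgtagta
Gm29216: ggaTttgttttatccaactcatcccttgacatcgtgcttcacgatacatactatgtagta
Gm13340: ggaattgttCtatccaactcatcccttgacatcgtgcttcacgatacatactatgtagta

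The depth of a library lay between 10.91 and 22.09 megacounts of RSEM expected counts, of which 395690 to 1190992 counts fell on the mitochondrial genes. The tissue labels went with their markers. The 15 keratinocyte markers summed to 22050 to 38190 CPM (counts scaled to a common library total) in skin and to 9.502 to 288.1 CPM in bone. The 12 osteoblast markers summed to 15.31 to 25.15 CPM in skin and to 1485 to 3805 CPM in bone. Several libraries stood apart from their groups. Skin S-PRT 4 held 514.3 CPM of the 12 collagen and fibroblast markers, and skin Untreated 1 had 3.937% of its counts on rRNA-like genes, against 1.158 to 1.348% in the other untreated skin libraries. Bone Untreated 1 had 10.55% of its counts on the non-coding RNAs 7SK and 7SL, against 5.281 to 7.668% in the other untreated bone libraries. The mitochondrial results below that rest on an untreated group are therefore given with and without its library 1.

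The copies took a large part of the reads of the genes that they match, and the split differed between the tissues. Of the counts shared by mt-Co2 and its copies, 93.88 to 96.64% were assigned to the copies in skin and 64.41 to 81.09% in bone. For mt-Nd4l, which encodes a small complex I subunit, the copy held 51.55 to 67.83% in skin and 1.456 to 3.331% in bone. The skin and bone ranges do not overlap for either gene. For mt-Nd3 the copy held 92.34 to 97.77% in skin and 88.75 to 95.79% in bone, and for mt-Co3 78.37 to 88.73% in skin and 82.19 to 88.41% in bone. For mt-Atp6 it held 74.41 to 85.84% in skin and 70.51 to 81.77% in bone. For mt-Nd4 it was 0.251 to 4.861% in skin and 2.223 to 8.512% in bone, and for mt-Co1 at most 1.276% anywhere. The values of mt-Co2, mt-Nd3, mt-Co3, mt-Atp6 and mt-Nd4l are uncertain for this reason, and the calls that turn on them are given below also with the copies added.

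**Figure D1:**
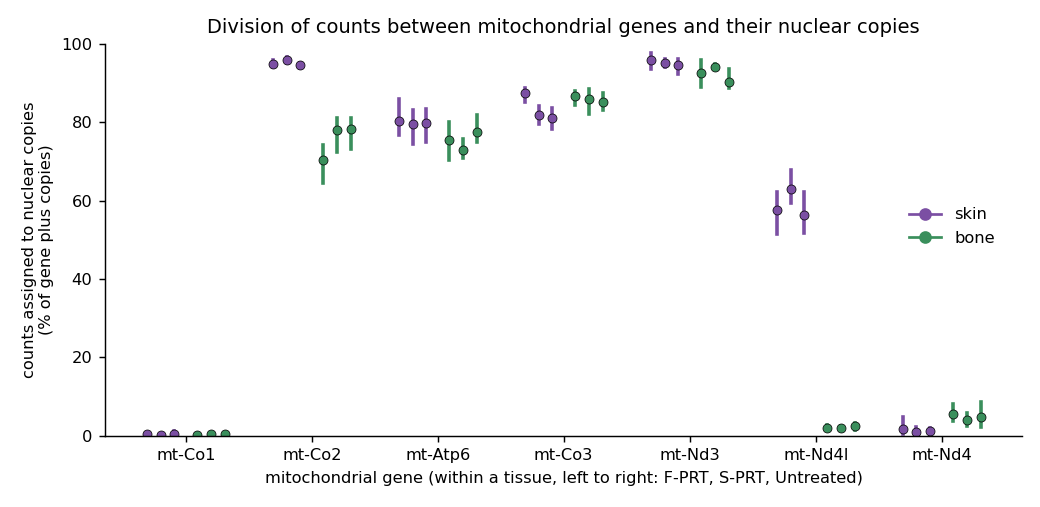
Percentage of the counts of a mitochondrial mRNA and its nuclear copies that was assigned to the copies. The genes drawn are mt-Co1, mt-Co2, mt-Atp6, mt-Co3, mt-Nd3, mt-Nd4l and mt-Nd4. Each line runs from the lowest to the highest library of a group, and its dot is the group mean. Skin is drawn to the left of bone. Over all libraries of a tissue, mt-Co2 lies at 93.88 to 96.64% in skin and 64.41 to 81.09% in bone. For mt-Nd4l the range is 51.55 to 67.83% in skin and 1.456 to 3.331% in bone.

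Per length, mt-Co1, the catalytic core subunit of complex IV, stood first in both untreated tissues. It had 12180 ± 4826 CPM per kilobase in untreated skin and 10690 ± 5233 in untreated bone (SD, n = 4 each). In skin mt-Nd1 followed with 6934 ± 2694 CPM per kilobase, then mt-Nd4 with 4915 ± 2101 and mt-Cytb with 4144 ± 1529. The SDs hold the shifts of whole libraries, and within each library the order was steadier. In untreated skin mt-Co1 was 1.722 to 1.812 times as high as mt-Nd1, and mt-Nd1 1.363 to 1.582 times as high as mt-Nd4, each in 4 of 4 libraries. The order of mt-Nd4 and mt-Cytb is not resolved, with ratios of 0.9892 to 1.256. In untreated bone mt-Co1 stood 2.42 to 2.598 times above mt-Nd1, which stood 1.301 to 1.384 times above mt-Cytb. The place of mt-Co2 depended on the copies: it ranked 12 of the 15 mRNA and rRNA genes in untreated skin with 530.5 ± 184.2 CPM per kilobase, and 2 with 9932 ± 3813 once the copies were added. In untreated bone it ranked 9 with 1608 ± 751.7 CPM per kilobase alone, and 3 with 7526 ± 3692 with the copies. The rRNA genes mt-Rnr1 and mt-Rnr2 stood among the lowest per length. The labels call these libraries poly(A)-selected, and the part of that selection in the rRNA levels was not tested. The only mRNA gene on the light strand, mt-Nd6, overlaps the end of mt-Nd5, and without strand information the reads of the overlap cannot be told apart. The overlaps of mt-Atp8 with mt-Atp6 and of mt-Nd4l with mt-Nd4 lie on the same strand. Reads within these overlaps cannot be told apart with or without strand information.

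The mitochondrial share of library counts did not separate the groups in either tissue. In skin it was 4.915, 4.282, 4.447 and 3.897% after F-PRT, 4.743, 4.499, 4.311 and 6.315% after S-PRT, and 2.438, 5.087, 6.46 and 6.231% without irradiation. Untreated library 1 lies below every other skin library, while the other 3 untreated libraries lie above all 4 F-PRT libraries. In bone the share was 4.233, 4.399, 6.393 and 4.098% after F-PRT, 4.34, 5.728, 4.363 and 4.545% after S-PRT, and 6.81, 2.812, 3.002 and 3.118% without irradiation. Here Untreated library 1 lies above every other bone library, and the other 3 lie below all 8 irradiated libraries. In bulk tissue, fewer cells rich in mitochondria and less mitochondrial RNA per cell cannot be told apart.

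The group means of this share were 4.39% for F-PRT and 4.97% for S-PRT, against 5.05% for Untreated in skin, or 5.93% without Untreated 1. In bone they were 4.78% for F-PRT and 4.74% for S-PRT, against 3.94% for Untreated, or 2.98% without Untreated 1. Other libraries move these gaps too. In skin F-PRT minus Untreated was -0.669 percentage points, and -0.2 and -0.276 without Untreated 3 and Untreated 4. S-PRT minus Untreated was -0.087 in skin, and -0.536 without S-PRT 4, 0.382 without Untreated 3 and 0.305 without Untreated 4. In bone F-PRT minus Untreated was 0.845, and 0.308 without F-PRT 3 and 0.471, 0.534 and 0.573 without Untreated 2, 3 and 4. S-PRT minus Untreated was 0.808 in bone, and 0.48 without S-PRT 2 and 0.434, 0.497 and 0.536 without Untreated 2, 3 and 4. The SD between libraries was 1.34 to 1.56 percentage points, more than any of these 4 gaps. As a share of TPM, which corrects for length, the bone groups did separate: it was 5.216 to 8.224% after F-PRT and 5.14 to 6.55% after S-PRT, against 2.303 to 4.747% in untreated bone. The short RNAs 7SK and 7SL, which weigh heavily in TPM, separated the same groups, with 22.73 to 28.03% of TPM after F-PRT and 26.28 to 28.45% after S-PRT, against 28.85 to 43.08% in untreated bone. With both left out of the total, the mitochondrial share of TPM was 7.165 to 10.64% after F-PRT and 7.002 to 8.991% after S-PRT. In untreated bone it was 3.482 to 8.339%. The groups then overlapped through Untreated 1 alone, at 8.339%, while Untreated 2, 3 and 4 were at 3.482, 4.073 and 4.119%. The gap of the means from Untreated was 3.12 (F-PRT) and 2.74 (S-PRT) percentage points, against 2.83 and 2.43 with both RNAs kept. In skin the mitochondrial share of TPM with both RNAs kept overlapped between the groups. It was 3.149 to 4.386% after F-PRT and 3.967 to 5.768% after S-PRT, against 2.675 to 5.121% in untreated skin.

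**Figure D2:**
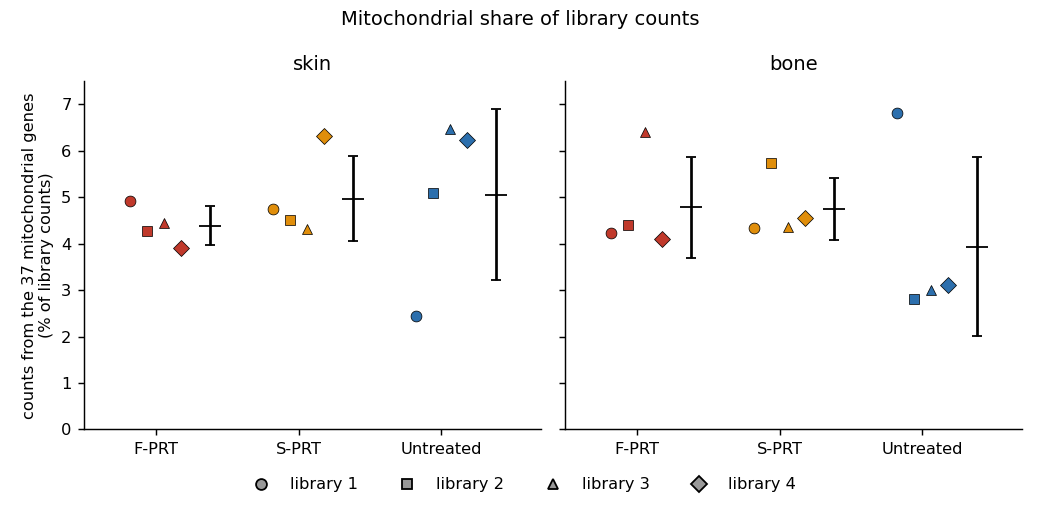
Share of library counts on the 37 mitochondrially encoded genes, in percent, for each of the 24 libraries, with the mean and SD of each group of 4; the symbols mark the library number. Untreated library 1 lies lowest in skin, at 2.438%, and highest in bone, at 6.81%.

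Of the 37 genes, 16 had enough counts to be tested, namely the 13 mRNAs, the 2 rRNAs and mt-Tm. Levels in the text are CPM of the library total, and fold changes come from the edgeR quasi-likelihood fit with its TMM scaling, adjusted by Benjamini-Hochberg over all genes tested with a threshold of 0.05.

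In skin, none of the 16 passed the test after F-PRT against Untreated, where 2.39% of all genes tested did, and 1 had an unadjusted p below 0.05. DESeq2 called 1 of them lower and limma voom with quality weights called 6 lower. Of the 19038 genes tested, DESeq2 called 564 lower and limma voom 1309. All 13 mRNAs had a negative log2 change, from -0.77 to -0.16 with a median of -0.32, against a median of -0.02 over all genes. The complex IV subunit mt-Co3 (chrM:8607-9390) had the lowest value. Its level was 788.9, 657.5, 920.8 and 724.2 CPM after F-PRT, against 688.4, 1115, 1605 and 1519 CPM in untreated skin. All 4 F-PRT libraries lie below Untreated 2, 3 and 4, and 3 of them above Untreated 1. Its log2 change was -0.77 ± 0.23 (SE), with an adjusted p of 0.117. The nuclear copy of mt-Co3 held more of the shared reads after F-PRT, 85.23 to 88.73%, than without irradiation, 78.37 to 83.68%, and with the copy added the change was -0.22 ± 0.27 with an adjusted p of 0.774.

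The complex I mRNAs showed the same range in skin. The level of mt-Nd1 was 6256, 5307, 5743 and 4824 CPM after F-PRT and 5711, 5598, 5398 and 7964 CPM after S-PRT, against 2929, 6870, 8616 and 8128 CPM in untreated skin. Untreated 1 is the lowest of the 12, and the other 3 untreated libraries lie above all 4 F-PRT libraries. Its log2 change was -0.36 ± 0.29 after F-PRT, with an adjusted p of 0.621. For the other complex I genes it was -0.27 for mt-Nd2, -0.72 for mt-Nd3, -0.21 for mt-Nd4, -0.43 for mt-Nd4l, -0.24 for mt-Nd5 and -0.16 for mt-Nd6. It was -0.30 for mt-Cytb of complex III, -0.26 for mt-Co1 and -0.32 for mt-Co2 of complex IV, and -0.33 for mt-Atp6 and -0.37 for mt-Atp8 of ATP synthase. The SEs of these changes lay between 0.24 and 0.40.

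Without Untreated 1 the median of the mRNAs after F-PRT was -0.52, and mt-Co3 alone passed the test, lower by -0.94 ± 0.19 with an adjusted p of 0.0249, where 2.53% of all genes passed. With its copy added it was -0.42 ± 0.18 with 0.268. The F-PRT and the remaining untreated libraries then did not overlap for 7 of the 13 mRNAs, all lower after F-PRT, against 9.34% of all genes tested. Markers moved with the treatment here as well. The 10 sebocyte markers summed to 2249 to 3987 CPM after F-PRT, against 5866 to 7562 CPM in untreated skin, and the 12 collagen and fibroblast markers to 4340 to 5493 CPM, against 1210 to 3391 CPM in untreated skin, with no marker of either list at 0. The brown adipocyte (68.29 to 89.91 against 109.3 to 150.5 CPM) and neutrophil sums (23.42 to 33.26 against 33.87 to 105.9 CPM) were lower after F-PRT. The endothelial (306.6 to 330.2 against 97.48 to 211.9 CPM) and B cell sums (92.81 to 113.5 against 52.3 to 77.01 CPM) were higher. The skeletal muscle sums overlapped (882.9 to 11450 against 34.63 to 9848 CPM). Their part in the result was not tested.

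After S-PRT in skin, none of the 16 passed the edgeR test against Untreated, where 4.34% of all genes did, and 1 had an unadjusted p below 0.05. DESeq2 called none and limma voom called 2 lower. Of the 19038 genes tested, DESeq2 called 659 higher and 828 lower, and limma voom called 1525 lower. The mRNA changes ran from -0.35 to 0.04 with a median of -0.04, of which 4 were positive and 9 negative. Without Untreated 1 the median was -0.26, and none passed the edgeR test, where 6.57% of all genes did, with 2 at an unadjusted p below 0.05. Leaving out the libraries that an earlier analysis of these data had doubted (skin S-PRT 4 and Untreated 1), 8 mRNAs fell after S-PRT with a median of -0.45, where 10.5% of all genes fell, and 11 fell after F-PRT with a median of -0.52, where 5.84% fell. With Untreated 1 alone left out, the F-PRT median was also -0.52 and 1 mRNA passed. Skin S-PRT 4 is in neither group of that comparison and enters it through the estimate of spread and the scaling.

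Between F-PRT and S-PRT in skin, none of the 16 passed the edgeR test, nor did any other gene (0.0%); 1 had an unadjusted p below 0.05, and DESeq2 and limma voom called none. The mRNA with the lowest change was again mt-Co3, with 788.9, 657.5, 920.8 and 724.2 CPM after F-PRT, against 957.5, 1263, 1174 and 1339 CPM after S-PRT. These groups do not overlap, which was so for 0.793% of all genes in the lower direction. Its log2 change was -0.69 ± 0.23 with an adjusted p of 0.999, and -0.19 ± 0.27 with its copy added. The median of the 13 mRNAs was -0.24.

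In bone, where 32.7% of all genes tested passed after F-PRT against Untreated, none of the 16 mitochondrial genes did, and 1 had an unadjusted p below 0.05. DESeq2 called none and limma voom called 2 higher. Of the 18848 genes tested, DESeq2 called 3293 higher and 3312 lower, and limma voom called 3801 higher. The mRNA changes ran from -0.37 to 0.41 with a median of 0.06, 8 positive and 5 negative. The level of mt-Nd2, a core complex I subunit, was 2723, 2707, 4570 and 2413 CPM after F-PRT and 2586, 3813, 2758 and 2803 CPM after S-PRT, against 3764, 1318, 1665 and 1742 CPM in untreated bone. The groups overlap through Untreated 1 alone. Its log2 change was 0.32 ± 0.32 after F-PRT and 0.27 ± 0.32 after S-PRT, with adjusted p of 0.482 and 0.572.

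Without bone Untreated 1, 9 mRNAs rose after F-PRT and none fell, where 18.5% of all genes rose. They were mt-Nd1, mt-Nd2, mt-Nd4, mt-Nd4l, mt-Nd5 and mt-Nd6 of complex I, mt-Cytb, mt-Co2 and mt-Atp6. The change of mt-Nd2 was then 0.84 ± 0.21 with an adjusted p of 0.00886, that of mt-Co2 0.86 ± 0.22 with 0.00971, and that of mt-Cytb 0.54 ± 0.16 with 0.016. With the copies added 8 rose, where 18.5% of all genes did: mt-Nd1, mt-Nd2, mt-Nd3, mt-Nd4, mt-Nd4l, mt-Nd5, mt-Nd6 and mt-Cytb. The changes of mt-Co2 and mt-Atp6 were then 0.42 ± 0.16 and 0.34 ± 0.15, which did not pass, with adjusted p of 0.0618 and 0.0961. Counted alone, the groups did not overlap for 11 mRNAs, all higher after F-PRT, against 31.4% of all genes. Without all 3 doubted bone libraries (F-PRT 2, F-PRT 3 and Untreated 1), none of the 16 passed the edgeR test, where 23.9% of all genes did, 7 had an unadjusted p below 0.05, and all 13 mRNAs were positive with a median of 0.32. With 2 F-PRT libraries left, none of the 13 mRNAs overlapped the untreated group, against 39.0% of all genes in that direction.

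After S-PRT in bone, 1 mitochondrial gene passed, where 28.5% of all genes did. This was mt-Nd3, a small complex I subunit, with 26.67, 28.31, 32.6 and 26.12 CPM after S-PRT, against 55.34, 35.6, 36.48 and 38.5 CPM in untreated bone. All S-PRT libraries lie below all untreated ones, as for 7.36% of all genes. It fell by 0.75 ± 0.23 on the log2 scale, with an adjusted p of 0.0285, and without Untreated 1 by 0.50 ± 0.21 with an adjusted p of 0.0908. Without S-PRT 1, 2 or 4 the adjusted p was 0.0677, 0.0589 and 0.0782, in that order. Nearly all reads of this sequence went to its nuclear copy, and T3C, printed above, is the only difference within the 345 aligned bases. With the copy added, the level was 420.1, 564.2, 511 and 481.1 CPM after S-PRT, against 868.9, 318.6, 351 and 342.3 CPM in untreated bone; the groups overlap, and the change was -0.15 ± 0.31 with an adjusted p of 0.743. With the copy added and Untreated 1 left out the direction turned, to 0.42 ± 0.15 with an adjusted p of 0.0486.

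The other 12 mRNAs in bone did not pass after S-PRT, and the median of all 13 was 0.09, 10 positive and 3 negative. Without Untreated 1, 9 rose, where 16.9% of all genes did: mt-Nd1, mt-Nd2, mt-Nd4, mt-Nd4l, mt-Nd5 and mt-Nd6 of complex I, mt-Cytb, mt-Atp6 and mt-Atp8. The change of mt-Atp6, a membrane subunit of ATP synthase, was then 0.75 ± 0.19 with an adjusted p of 0.00792, and that of mt-Nd2 was 0.79 ± 0.21 with 0.0125. With the copies added 11 rose, where 16.9% of all genes did, and mt-Atp6 changed by 0.44 ± 0.15 with an adjusted p of 0.0375. The groups did not overlap for 10 mRNAs that were higher after S-PRT, against 27.1% of all genes. Both irradiated groups share the untreated libraries, so these counts are not independent of each other.

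Between F-PRT and S-PRT in bone, none of the 16 passed the edgeR test, and 0.00531% of all genes did; 2 had an unadjusted p below 0.05, both rRNAs, and DESeq2 and limma voom called none. The mRNA median was 0.00, between -0.23 for mt-Atp6 and 0.40 for mt-Co2, with SEs of 0.32 and 0.30.

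**Figure D3:**
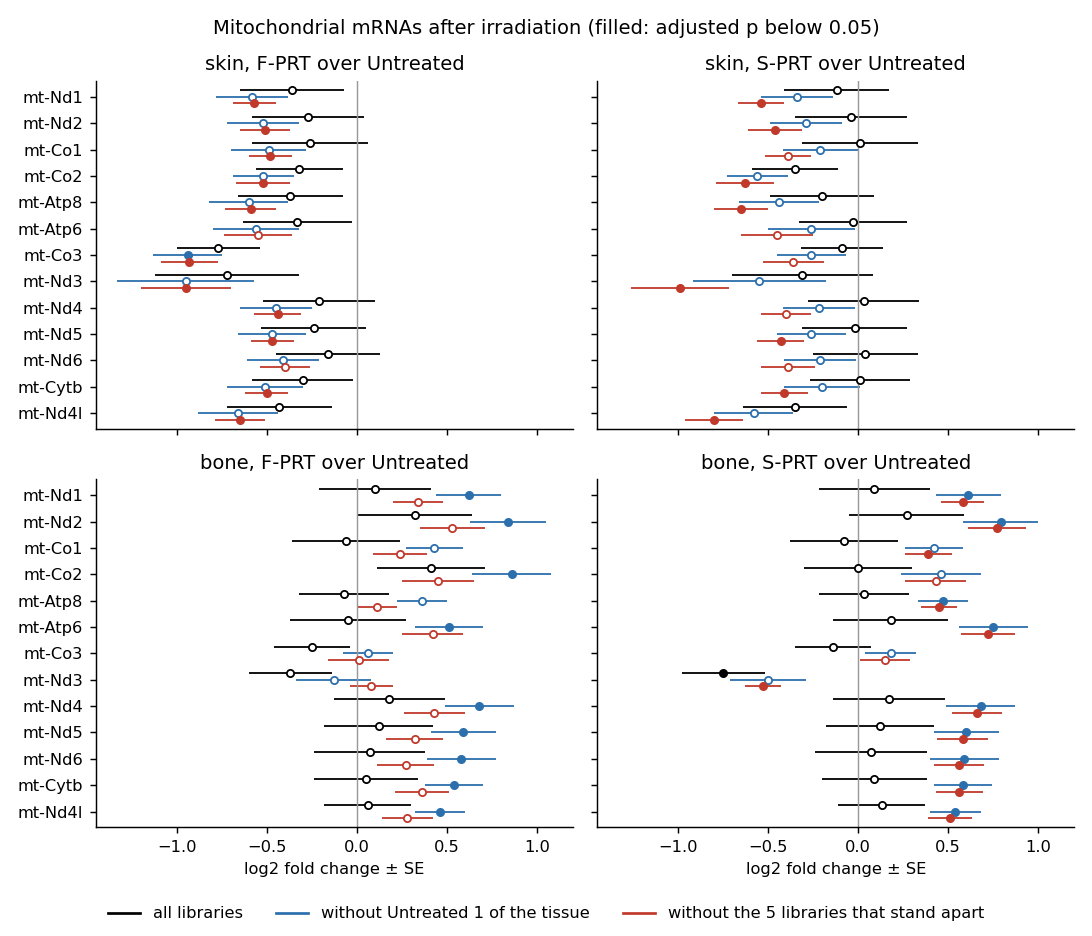
Log2 change of each of the 13 mitochondrial mRNAs with its standard error, for each irradiated group over the untreated one, in skin and bone. Points are given for the fit of all libraries and for fits with libraries left out. In the fit of all libraries, all 13 are below 0 in skin after F-PRT, with a median of -0.32. In bone after F-PRT the median of that fit is 0.06.

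The makeup of the mitochondrial mRNAs in bone did separate irradiated from untreated libraries, Untreated 1 included. Here each library's counts of the 13 mRNAs were taken as 100%, which removes the total. A higher part for complex I therefore leaves less for the others, and the separations of complex I and complex IV are not independent. The 7 complex I mRNAs made up 42.49, 42.79, 45.12 and 41.7% after F-PRT and 42.61, 44.16, 43.53 and 43.17% after S-PRT, against 40.62, 38.21, 41.2 and 40.81% without irradiation. The 3 complex IV mRNAs made up 44.51, 45.37, 42.78 and 45.49% after F-PRT and 43.76, 43.16, 43.47 and 43.26% after S-PRT, against 46.68, 49.16, 46.75 and 46.26% without irradiation. Every irradiated library was above every untreated one for complex I and below every untreated one for complex IV.

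With the nuclear copies added, the same held. Complex I then made up 33.43 to 36.56% after F-PRT and 33.32 to 35.08% after S-PRT, against 29.45 to 32.15% in untreated bone. Complex IV made up 48.99 to 51.15% after F-PRT and 49.79 to 50.44% after S-PRT, against 52.54 to 54.7% in untreated bone. Within complex I it was mt-Nd2 that lay above the untreated range in both irradiated groups and under both ways of counting. Its part of the 13 mRNAs was 5.893 to 7.15% after F-PRT and 6.101 to 6.683% after S-PRT, against 4.689 to 5.602% without irradiation. Several marker sums separated the same groups in bone. The 11 erythroid markers summed to 19620 to 29700 CPM after F-PRT and 20220 to 32830 CPM after S-PRT, against 45050 to 71440 CPM in untreated bone. The 12 neutrophil markers summed to 1444 to 2409 CPM after F-PRT and 1727 to 2628 CPM after S-PRT, against 4001 to 17740 CPM in untreated bone. Sums were higher after irradiation for the 12 osteoblast markers, with 1998 to 3805 CPM after F-PRT and 3060 to 3610 CPM after S-PRT, against 1485 to 1991 CPM in untreated bone. They were also higher for the 12 endothelial markers, with 846.6 to 950.8 CPM after F-PRT and 702.1 to 972.9 CPM after S-PRT, against 529.3 to 668.5 CPM. The 12 adipocyte markers summed to 782 to 1148 CPM after F-PRT and 778.7 to 1080 CPM after S-PRT, against 345.2 to 551.2 CPM. The 10 sebocyte markers, a list meant for skin, summed to 2090 to 2579 CPM after F-PRT and 1810 to 2397 CPM after S-PRT, against 791.2 to 1404 CPM. The 10 B cell markers overlapped, with 930.3 to 1774 CPM after F-PRT and 889 to 2738 CPM after S-PRT, against 763.8 to 2559 CPM. So did the 24 skeletal muscle markers, with 6228 to 27970 CPM after F-PRT and 7524 to 17550 CPM after S-PRT, against 826.9 to 10790 CPM. The RNAs 7SK and 7SL took 3.085 to 4.189% of counts after F-PRT and 4.017 to 4.296% after S-PRT, against 5.281 to 10.55% in untreated bone. No marker of these lists was at 0, and the part of these values in the result was not tested. As sums over chosen genes these parts carry no test. Such parts were taken for the 13 mRNAs and their complexes only, so their non-overlap has no share over all genes beside it. Counted alone, 2 of the 13 mRNAs lay above and 1 below the untreated range after F-PRT, and 2 and 2 after S-PRT.

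**Figure D4:**
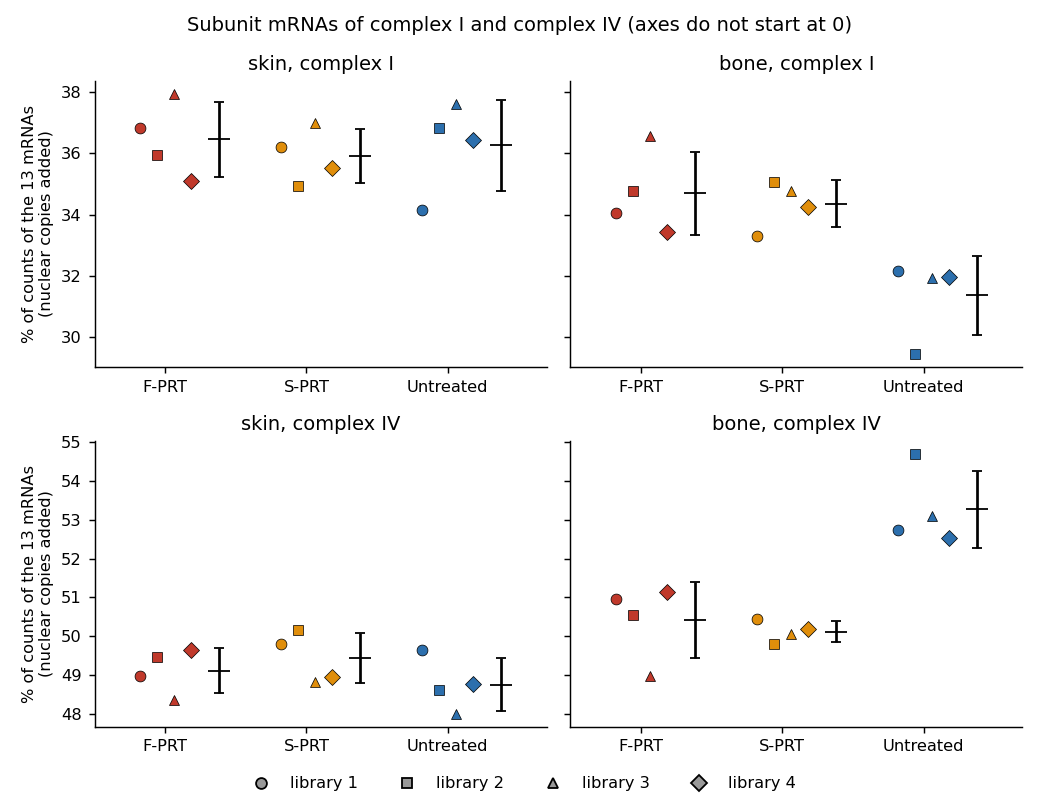
Percentage of the counts of the 13 mitochondrial mRNAs, nuclear copies added, that belongs to the 7 complex I mRNAs (top) and the 3 complex IV mRNAs (bottom), by library, with the mean and SD of each group of 4. In bone, complex I is at 33.43 to 36.56% after F-PRT and 33.32 to 35.08% after S-PRT, against 29.45 to 32.15% in the untreated libraries, and every irradiated library lies below the untreated ones for complex IV. The skin groups overlap.

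In skin the parts of complex I and complex IV overlapped between all groups, and 1 mRNA separated both irradiated groups from the untreated one. The part of mt-Nd1 was 12.76, 12.43, 13.05 and 12.4% after F-PRT and 12.05, 12.53, 12.55 and 12.61% after S-PRT, against 13.73, 13.53, 13.34 and 13.06% without irradiation. The F-PRT and Untreated ranges are separated by 13.05% against 13.06%. With the copies added the part of mt-Nd1 was 9.006 to 9.659% after F-PRT and 9.139 to 9.367% after S-PRT, against 9.713 to 10.18% without irradiation, which again did not overlap. Counted alone, 2 of the 13 mRNAs lay below the untreated range after F-PRT and 3 after S-PRT, with 0 above in either. A share over all genes was not taken for these parts.

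Between the untreated tissues, 4 of the 16 genes passed, skin over bone, where 65.2% of all genes tested did. The 2 mRNAs among them were both lower in skin. The level of mt-Co2 (chrM:7013-7696), which carries the copper site that takes electrons from cytochrome c, was 175.1, 410.6, 420.7 and 445.1 CPM in untreated skin, against 1842, 765.8, 742.2 and 1050 CPM in untreated bone. The groups do not overlap, and mt-Co2 fell by 1.62 ± 0.29 on the log2 scale with an adjusted p of 4.68e-05. The level of mt-Nd4l (chrM:9877-10173) was 128.8, 291, 430.6 and 384.7 CPM in skin, against 1033, 466.9, 502.7 and 578.9 CPM in bone; it fell by 1.08 ± 0.28 with an adjusted p of 0.00174. Non-overlap in the lower direction held for 28.9% of all genes.

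Both differences depended on the read assignment. With the copies added, mt-Co2 had 3135, 6709, 8748 and 8579 CPM in skin, against 8935, 3828, 3926 and 3903 CPM in bone, a change of 0.39 with an adjusted p of 0.256. For mt-Nd4l the change was 0.04 with an adjusted p of 0.89. In that count mt-Nd3 passed instead, higher in skin by 0.93 ± 0.32 with an adjusted p of 0.0141, and all 13 mRNAs were positive with a median of 0.36. Counted alone, 10 mRNAs were positive and 3 negative, with a median of 0.34. Without Untreated 1 of both tissues, a setting chosen after seeing the data, 10 mRNAs were higher in skin and mt-Co2 and mt-Nd4l lower, where 63.7% of all genes passed, and the median was 0.96. With the copies added in that setting, mt-Co2 was higher in skin by 1.03 and mt-Nd4l by 0.59, with adjusted p of 0.000145 and 0.00839.

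**Figure D5:**
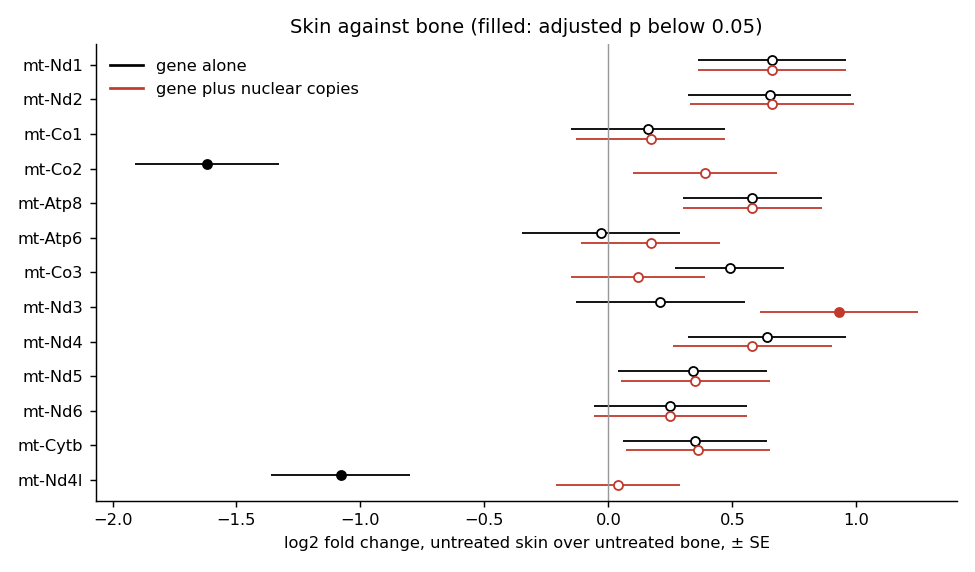
Log2 change of the 13 mitochondrial mRNAs between untreated skin and untreated bone (skin over bone), with standard errors, for each gene alone and with its nuclear copies added. Alone, mt-Co2 is at -1.62 and mt-Nd4l at -1.08; with the copies added they are at 0.39 and 0.04.

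The response to F-PRT against Untreated was also compared between the tissues, as the effect in skin minus the effect in bone. None of the 16 genes passed the edgeR test, where 10.7% of all genes did, and none had an unadjusted p below 0.05. DESeq2 called none and limma voom called 11 lower. Of the 20754 genes tested, DESeq2 called 1249 higher and 1553 lower, and limma voom called 2129 lower. All 13 mRNAs were negative, with a median of -0.38. Without Untreated 1 of both tissues, 12 of the 13 passed as lower in skin, with a median of -1.06, where 11.1% of all genes passed. For S-PRT, mt-Rnr1 passed and no mRNA did, where 9.45% of all genes passed. The mRNA median was -0.17 there, and without Untreated 1 of both tissues 8 mRNAs passed as lower, with a median of -0.88, where 12.4% of all genes passed. For F-PRT against S-PRT none of the 16 passed the edgeR test and none had an unadjusted p below 0.05, where 0.0% of all genes passed, and DESeq2 and limma voom called none.

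The rRNAs were low and uneven. The level of mt-Rnr2, the 16S rRNA of the large mitochondrial ribosomal subunit, was 74.82, 91.36, 352 and 50.44 CPM after F-PRT and 20.69, 218.4, 78.88 and 11.35 CPM after S-PRT, against 2077, 68.04, 21 and 72.26 CPM in untreated skin. In bone it was 119.2, 61.35, 13.27 and 17.95 CPM after F-PRT and 655.9, 142.9, 30.96 and 89.42 CPM after S-PRT, against 58.3, 9.595, 30.37 and 59.03 CPM without irradiation. Skin Untreated 1 and bone S-PRT 1 stand above all the others. For mt-Rnr1, the 12S rRNA of the small subunit, the same libraries led, with 967.8 CPM in skin Untreated 1 and 355.3 CPM in bone S-PRT 1.

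In untreated skin against untreated bone both rRNAs passed, mt-Rnr1 by 4.07 ± 1.39 with an adjusted p of 0.0136 and mt-Rnr2 by 4.00 ± 1.35 with 0.0127, though the groups overlap. Without skin Untreated 1 the changes were 0.11 with an adjusted p of 0.935 and 0.42 with 0.737. The difference between the tissues in the S-PRT response of mt-Rnr1 was -5.88 ± 1.87 with an adjusted p of 0.0494, and it was -1.92 with 0.466 without skin Untreated 1 and -4.44 with 0.151 without bone S-PRT 1. Of the 24 fits that each left out 1 library, it passed in 5. In bone S-PRT against Untreated, mt-Rnr1 changed by 2.68 ± 0.96 and mt-Rnr2 by 2.36 ± 0.91, which did not pass, with adjusted p of 0.0526 and 0.0695. The calls of both rRNAs between the untreated tissues were thus lost without 1 library, skin Untreated 1. It also had mRNAs at 87.51% of its mitochondrial counts, against 97.67% or more in the other 23.

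The tRNAs, of 59 to 75 bases, were at the floor of this assay. Together the 22 genes held 598 counts over the 24 libraries, and 11 of them had 0 counts in every library. A count of 0 allows up to 3 counts, or 0.1358 to 0.275 CPM depending on the library. Of the counts, 81.77% fell on mt-Tm, the tRNA for methionine (chrM:3845-3913, plus strand), which had reads in all 24 libraries. It lies directly before mt-Nd2, which begins at 3914. Its sequence is shown because it alone among the tRNAs was abundant enough to test.
mt-Tm: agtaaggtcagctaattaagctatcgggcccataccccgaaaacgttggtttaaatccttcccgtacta
Its level was 0.617, 1.749, 1.346 and 0.924 CPM in bone F-PRT, against 2.017, 1.35, 1.839 and 1.974 CPM in untreated bone. The groups overlap, and the log2 change was -0.82 ± 0.37 with an adjusted p of 0.105. In the other comparisons mt-Tm did not pass either. After mt-Tm, mt-Ts1 had 33 counts and mt-Te 27 over all libraries.

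The nuclear partners of these genes were read from lists of respiratory chain subunits and of factors that maintain and express mitochondrial DNA. In skin after F-PRT, none of the 36 nuclear complex I genes tested passed, 35 of them with a negative change and a median of -0.25. Of the 17 ATP synthase genes 2 fell, where 1.39% of all genes did. Atpif1, the inhibitor of ATP hydrolysis, averaged 111.1 ± 7.526 CPM after F-PRT, against 144.8 ± 8.274 CPM in untreated skin (SD, n = 4 each), and fell by 0.50 ± 0.10 with an adjusted p of 0.0245. Of 10 transcription genes 1 fell, Mrpl12, a large ribosomal subunit protein that also binds the mitochondrial RNA polymerase. It averaged 30.92 ± 3.317 CPM after F-PRT, against 48.19 ± 10.82 CPM, a log2 change of -0.75 ± 0.14 with an adjusted p of 0.0158. Of 10 regulators of mitochondrial biogenesis 1 fell, the fatty acid receptor Ppara, by 1.13 ± 0.25 with an adjusted p of 0.0374.

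After S-PRT in skin, 3 of the 17 ATP synthase genes fell, 2 of the 9 complex III genes, Uqcrq and Uqcr10, and 2 of the 11 complex IV genes, Cox7b and Cox7a2, where 2.52% of all genes fell. Atpif1 averaged 98.02 ± 11.73 CPM after S-PRT, against 144.8 ± 8.274 CPM, and fell by 0.61 ± 0.10 with an adjusted p of 0.00514. Mrpl12 fell by 0.93 ± 0.14 with an adjusted p of 0.00286, and Ppara by 1.25 ± 0.26 with 0.0153. No gene of these lists rose in skin after either treatment. The lists were compared with the same untreated libraries as the mitochondrial mRNAs, none of which passed in these fits.

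In bone after F-PRT, 7 of the 36 nuclear complex I genes rose and none fell, and 4 of the 13 chaperones and proteases rose, where 15.5% of all genes rose. Ndufa10, an accessory complex I subunit, averaged 77.91 ± 9.935 CPM after F-PRT, against 49.52 ± 8.659 CPM in untreated bone (SD, n = 4 each), a log2 change of 0.46 ± 0.12 with an adjusted p of 0.00981. Hspa9, the mitochondrial Hsp70 that pulls proteins through the inner membrane, averaged 130.9 ± 9.024 CPM after F-PRT, against 83.67 ± 7.989 CPM, a change of 0.45 ± 0.08 with 0.000839. None of the 11 complex IV genes passed, and of the 12 genes of mitochondrial DNA replication 3 fell, where 17.2% of all genes fell. Among these, Polg, the catalytic subunit of the mitochondrial DNA polymerase, averaged 46.68 ± 5.04 CPM after F-PRT, against 60.66 ± 3.984 CPM, and fell by 0.58 ± 0.10 with an adjusted p of 0.000556. Of 11 mitophagy genes 2 rose and 2 fell, and Bnip3l, a receptor that clears mitochondria from maturing red cells, fell by 1.05 ± 0.12 with an adjusted p of 4e-05. The erythroid marker sums given above were also lower, and their part in this fall was not tested.

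After S-PRT in bone, 4 complex I genes, 3 of the 4 complex II genes and 3 chaperones and proteases rose, where 13.3% of all genes rose, and 2 replication genes fell, where 15.2% fell. Polg averaged 50.37 ± 3.99 CPM after S-PRT, against 60.66 ± 3.984 CPM in untreated bone, and fell by 0.46 ± 0.10 with an adjusted p of 0.00306. Ppargc1b, a coactivator of nuclear genes for mitochondrial proteins, averaged 16.77 ± 1.637 CPM after S-PRT, against 8.814 ± 1.512 CPM, a change of 0.73 ± 0.15 with 0.00226. Without the doubted bone libraries, none of the complex I genes passed after F-PRT, and 3 rose and 1 fell after S-PRT, where 14.8% of all genes rose and 15.1% fell. Between F-PRT and S-PRT, no gene of any of the lists passed in skin or in bone.

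In untreated skin against untreated bone, 25 of 36 complex I, 9 of 9 complex III, 8 of 11 complex IV and 13 of 17 ATP synthase genes were higher in skin and none lower, where 32.6% of all genes were higher. Their medians were 0.62, 0.72, 0.53 and 0.70. The mitochondrial mRNAs of the same complexes, counted alone in the same fit of all libraries, had a median of 0.34, with none higher past the test. With the copies added mt-Nd3 was higher past the test. Without Untreated 1 of both tissues 10 mRNAs, counted alone, were higher and 2 lower, with a median of 0.96. The 2 sets of genes are therefore not shown to differ. Ndufb6, an accessory complex I subunit, averaged 26.82 ± 4.987 CPM in untreated skin, against 9.277 ± 1.55 CPM in untreated bone, a log2 change of 1.55 ± 0.13 with an adjusted p of 4.6e-10. Of the 12 replication genes 2 were higher and 6 lower in skin, where 32.6% of all genes were lower, among them Primpol, a primase and polymerase, at -1.44 ± 0.13 with 1.73e-09, and Top1mt, the mitochondrial topoisomerase, at 1.66 ± 0.33 with 0.00013.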

How the data were processed

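RNA was selected for poly(A) and sequenced by the authors as paired reads of 150 bases on an Illumina HiSeq instrument, per the labels. The genome build GRCm38 and the tools RSEM, STAR, cutadapt and FastQC are listed in the submitters' processing notes, with versions and strand settings not given in the sources used here. Every RSEM table deposited by the authors holds expected counts, TPM and FPKM for 55471 genes, per the file headers. GENCODE M21 matched 55230 identifiers (99.57%), and the annotation behind the files is not given in the sources used here. RSEM divides reads among near-identical sequences. In the deposited TPM, the effective length of mt-Atp8 was 30.79 to 42.83 of 204 bases, which inflates it, and the tRNAs have a TPM of 0.

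Expected counts, as deposited by the authors, were rounded and tested with edgeR 4.0.16 in R 4.3.3 (quasi-likelihood, TMM, filterByExpr), with all 12 libraries of a tissue per fit, or all 24 where tissues were compared. The mitochondrial share was taken of counts and also of TPM, ranks per length were taken of CPM per kilobase, and FPKM was not used. Levels are CPM of the unscaled library total. Replicate pairs differed beyond counting error (chi-square per degree of freedom 9.54 to 209.7 over genes with at least 20 counts). The labels call the samples biological replicates and name no separate animals, so p-values measure the spread between these samples. The floor of 3 counts covers counting error only.

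The members and gene lists were chosen with earlier results of these data known. The 13 mRNAs and 2 rRNAs are given singly; from each nuclear list at most 2 genes per comparison, those that passed with the smallest p, could be named. Nuclear copies of at least 1 CPM on average are named. Alternatives were DESeq2 1.42.0, limma 3.58.1 (voom with quality weights), RLE scaling, scaling by nuclear genes, other filters, added copies, a muscle marker covariate, a replicate block, fits of the 8 libraries compared and leaving out libraries. Library size without TMM, leaving out Untreated 1 of both tissues and a block across tissues were added after seeing the data, as were copies added without Untreated 1, a share of TPM without 7SK and 7SL, and a block in the 8 irradiated skin libraries. The check of the replicate numbers correlated the deviations of same-numbered libraries from their group means. Every pair was over 0.1 for skin F-PRT and S-PRT alone (0.4565, 0.1179, 0.3064 and 0.1398). Over all groups 15 of 36 pairs were over 0.1, and this limit carries no test. The check therefore cannot decide whether the numbers pair those libraries, and no label names a pairing.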

Additional observations from a re-analysis of the deposited data

Results flagged for a closer look

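Within groups of 4, single libraries stood far from the other 3 in 27 of 102 sets of values, where chance flags about 1 in 20 groups, and the genes of a library are not independent of each other. In skin F-PRT, library 3 was highest for mt-Rnr1 (114.8 CPM) and mt-Rnr2 (352 CPM). In skin S-PRT, library 4 was highest for mt-Nd1 (7964 CPM) and mt-Nd5 (6462 CPM). In untreated skin, library 1 was highest for mt-Rnr1 (967.8 CPM) and mt-Rnr2 (2077 CPM) and lowest for mt-Co2 (175.1 CPM). In bone F-PRT, library 3 was highest for the mitochondrial share (6.393%), mt-Nd1 (7273 CPM), mt-Nd2 (4570 CPM), mt-Co1 (24010 CPM), mt-Nd4 (7865 CPM), mt-Cytb (5795 CPM) and mt-Nd4l (1010 CPM). This library also had the highest sum of the 24 skeletal muscle markers in bone, 27970 CPM, whose part was not tested. In bone S-PRT, library 2 was highest for the share (5.728%), mt-Nd1 (6114 CPM) and mt-Co1 (22290 CPM). In untreated bone, library 1 was highest for the share (6.81%), mt-Nd1 (7331 CPM), mt-Co1 (28640 CPM), mt-Atp8 (619.3 CPM), mt-Co3 (1267 CPM), mt-Nd3 (55.34 CPM), mt-Nd4 (7491 CPM), mt-Nd5 (6866 CPM), mt-Nd6 (1084 CPM) and mt-Cytb (6331 CPM).

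The effect of S-PRT against Untreated on mt-Rnr1 differed between skin and bone by -5.88 on the log2 scale, past the test of that difference in edgeR with an adjusted p of 0.0494. It passed in 5 of the 24 fits that each left out 1 library, and in 7 of 14 other alternatives. Skin Untreated 1 held 967.8 CPM of mt-Rnr1, against 6.582 to 25.49 CPM in the other untreated skin libraries.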

How the results depend on the processing

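Numbers of mitochondrial genes past the test moved by over 1.5 times as follows. With limma voom and quality weights they were 6 (skin F-PRT against Untreated), 2 (skin S-PRT), 2 (bone F-PRT), 2 (bone S-PRT), 12 (untreated tissues), 11 (tissue difference in the F-PRT effect) and 9 (in the S-PRT effect). Of all genes, limma voom called 1314 higher and 1309 lower in skin F-PRT and 1577 and 1525 in skin S-PRT, of 19038. In bone it called 3801 and 4078 for F-PRT and 3049 and 3328 for S-PRT, of 18848. Between the untreated tissues it called 7338 and 7217 of 20754. In the tissue differences it called 2074 and 2129 (F-PRT) and 1917 and 1542 (S-PRT). With DESeq2 the mitochondrial genes past the test were 1 for skin F-PRT and 2 for bone S-PRT. Of all genes, DESeq2 called 376 higher and 564 lower in skin F-PRT and 2863 and 3017 in bone S-PRT. Without the doubted libraries the mitochondrial numbers were 11 (skin F-PRT), 8 (skin S-PRT), 11 (bone S-PRT), 13 (untreated tissues), 13 and 11 (tissue differences, F-PRT and S-PRT). Of all genes, 1580 were then higher and 1124 lower in skin F-PRT and 2495 and 2014 in skin S-PRT, of 19258. In bone S-PRT they were 2891 and 2944 of 19514. Between the untreated tissues they were 7260 and 6969 of 21547, and in the tissue differences 1388 and 1285 (F-PRT) and 2044 and 1612 (S-PRT). Without Untreated 1 of both tissues, chosen after seeing the data, the mitochondrial numbers were 12 (untreated tissues), 12 and 8 (tissue differences, F-PRT and S-PRT). Of all 21062 genes, 6747 were then higher and 6669 lower between the untreated tissues. In the tissue differences they were 1150 and 1187 (F-PRT) and 1503 and 1105 (S-PRT). With the copies added as well, the mitochondrial numbers were 8 (bone F-PRT), 11 (bone S-PRT), 13 (untreated tissues), 12 and 7 (tissue differences, F-PRT and S-PRT). Of all genes, 3538 were then higher and 3184 lower in bone F-PRT and 3230 and 2930 in bone S-PRT, of 19148. Between the untreated tissues they were 6743 and 6668 of 21053, and in the tissue differences 1150 and 1184 (F-PRT) and 1504 and 1103 (S-PRT). For bone S-PRT the mitochondrial numbers were 3 with no filter, 2 in a fit of the 8 libraries compared, 2 with library size only and 0 with copies added, and for the untreated tissues 9 with no filter. Of all genes in bone S-PRT, 2765 were higher and 2048 lower of 41800 with no filter, and 2143 and 2333 of 18044 with the 8 libraries. They were 4472 and 1668 of 18848 with library size only, and 2512 and 2871 of 18839 with copies added. For the untreated tissues with no filter they were 7116 and 7939 of 43114. Leaving out 1 library at a time gave 0 to 1 mitochondrial genes past the test in skin F-PRT, 0 to 9 in bone F-PRT and in bone S-PRT, 4 to 13 between the untreated tissues, and 0 to 1 (F-PRT) and 0 to 2 (S-PRT) in the tissue differences, and 0 in skin S-PRT and in F-PRT against S-PRT of both tissues. In bone both highest numbers came without Untreated 1.

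Among the values past the test in either fit, signs turned in mt-Cytb (skin S-PRT, -0.41) and mt-Co1 (bone S-PRT, 0.39; its tissue difference, -0.79) without the doubted libraries, and in mt-Co2 (0.39) and mt-Nd4l (0.04) between the untreated tissues with copies added. In skin S-PRT 4 signs turned in all without the doubted libraries, and in bone F-PRT 5. With copies added and without Untreated 1, signs turned in mt-Nd3 (bone F-PRT, 0.49; bone S-PRT, 0.42; its tissue difference for S-PRT, -0.86) and, between the untreated tissues, in mt-Co2 (1.03), mt-Atp6 (0.77) and mt-Nd4l (0.59). For mt-Atp6 the change in bone F-PRT ran from -0.25 to 0.51 over single libraries left out, with 0.51 without Untreated 1, and between the untreated tissues it was 0.63 with limma voom, 0.73 without the doubted libraries and 0.71 without Untreated 1 of both tissues. The causes were not tested, beyond the added copies. The fall of mt-Nd3 in bone S-PRT did not pass with limma voom (adjusted p 0.101), with library size only (0.0776), with its copy added (0.743) or without S-PRT 1, 2 or 4 (0.0677, 0.0589 and 0.0782); it also did not pass without Untreated 1. The bone share differed from Untreated by 2.83 (F-PRT) and 2.43 (S-PRT) percentage points of TPM, against 0.845 and 0.808 of counts, and by 3.12 and 2.74 of TPM without 7SK and 7SL.

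Correlations of same-numbered deviations ran from -0.436 to 0.4565, with 15 of 36 over 0.1. Only skin F-PRT and S-PRT had every pair over 0.1, and there the replicate block, with all 12 skin libraries or with the 8 irradiated ones, gave 0 genes past the test, as without it. With the replicate block, 2 genes passed between the untreated tissues and 0 in the tissue difference for S-PRT, and a replicate block across tissues also gave 2 and 0. Scaling by library size alone moved the median of all genes to 0.19 in bone F-PRT and 0.18 in bone S-PRT, where the mRNA medians were 0.29 and 0.31. Depth limits only the tRNAs.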

Other observations

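The nuclear copies together took 1.466 to 1.751% of library counts in skin F-PRT and 1.464 to 2.268% in skin S-PRT, against 0.801 to 2.147% in untreated skin. In bone they took 1.192 to 1.833% after F-PRT and 1.336 to 1.723% after S-PRT, against 0.9863 to 2.269% without irradiation. In untreated skin against untreated bone, the counts assigned to Gm10222, the copy of mt-Nd4l, were higher in skin by 4.51 ± 0.35 on the log2 scale with an edgeR adjusted p of 1.8e-10, while those of Gm28437, the copy of mt-Co3, were at 0.03 with an adjusted p of 0.923. Both copies match their gene with 100% identity, so these values describe how indistinguishable reads were divided, not expression of the copies. For mt-Nd4l with its copy added the change was 0.04 with an edgeR adjusted p of 0.89, and for mt-Co3 0.12 with 0.724.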
